A study of Mus musculus with 18 samples.

Results

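The 3 independent cultures of a kidney epithelial cell line that served as the biological replicates of a drug experiment were compared with one another, irrespective of treatment. The members are the 9 arrays of the DEAB experiment, of 18 in the series, and each culture (biological replicates 1, 2 and 3 in the labels) gave 3 of them, 1 per treatment. The cells were mIMCD-3, an immortalized mouse line of the inner medullary collecting duct, kept in 1% serum, and all 3 treatments lasted 24 h. They were 25 µM DEAB (4-diethylaminobenzaldehyde, an inhibitor of the aldehyde dehydrogenases that make retinoic acid), 25 µM DEAB with 0.01 µM tRA (all-trans retinoic acid), and vehicle (0.1% ethanol with 0.1% DMSO). The other 9 arrays come from 3 further cultures of the same line, treated with 1 µM AGN193109, an antagonist of the retinoic acid receptors, with 1 µM AGN193109 and 0.2 µM tRA, or with the same vehicle. Transcripts were measured on Affymetrix Mouse Gene 1.0 ST arrays, and values are log2 levels normalized by the authors. Replicate numbers are names without an order, and a number does not link a culture of one experiment with a culture of the other. The labels give no day of treatment, RNA preparation or hybridization, so that a culture and the handling of its arrays cannot be told apart.

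Collecting duct cells are the last segment of the renal tubule and carry a single primary cilium, tight junctions and channels for salt and water. Inflammatory signalling through NF-kB, growth factor signalling through ERK and mechanical signalling through YAP and SRF each leave known sets of target transcripts, and these sets were examined here together with sets for metabolism, cell division and kidney identity.

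By their markers the cells read as a renal epithelium. Cdh1 (E-cadherin) read between 12.83 and 12.97 and Epcam between 12.18 and 12.35 in all 9 arrays, and Krt8 and Krt18, the keratins of simple epithelia, averaged 13.88 and 13.91 in culture 3, 14.01 and 13.98 in culture 2, and 14.13 and 14.07 in culture 1. Pax8, a renal transcription factor, averaged 12.85, 12.88 and 12.83 in cultures 3, 2 and 1. Aqp2, the water channel of principal cells, was lower, at 7.86 to 8.31, beside array medians of 7.48 to 7.51. Genes of principal cell transport had a median level of 7.06, beside 6.78 for markers of other kidney and blood cells. These values thus do not tell the collecting duct from other segments. Of 11 epithelial and collecting duct markers, 3 were called different between cultures by the test given next (Krt7, Krt8 and Pax2), with culture means within 0.33 of each other, and 0 to 1 with an array left out. The test called 7.47% of all genes. Of 23 markers of other kidney and blood cells, only Synpo was called (0 to 1 with an array left out), and their mean level was 6.84 to 6.91 in the arrays of culture 3, 6.90 to 6.93 in culture 2 and 6.82 to 6.99 in culture 1. The leukocyte marker Ptprc stayed between 5.95 and 6.25 and the macrophage marker Adgre1 between 4.96 and 5.12.

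Culture was a source of variation in many transcripts. Of 23410 transcript clusters (the array's unit, about 1 per gene) that carry a gene symbol, 1672 (7.14%) differed between the 3 cultures by limma's moderated F-test with treatment as a block (Benjamini-Hochberg adjusted p under 0.05), and 5261 had an unadjusted p under 0.05. The differences were mostly small. The range of the 3 culture means had a median of 0.105 over all clusters and of 0.347 over those called, with a median standard error of 0.0551 for a difference between 2 cultures. A range above 1 (above a doubling) was reached by 57 called clusters. In the sum of squares of each cluster over the 9 arrays, the median share was 33.1% for culture, 22.5% for treatment and 35.6% for the remainder, and culture took more than 50% in 29.4% of clusters. The remainder has 4 degrees of freedom, more than culture or treatment has. Culture and treatment take some share even where they have no effect, so these shares overstate what each adds.

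Most of the calls involved culture 1. Between culture 3 and culture 1, 1355 clusters (5.79%) were higher in culture 3 and 713 (3.05%) were lower. Between culture 2 and culture 1, 1436 (6.13%) were higher in culture 2 and 372 (1.59%) lower, a split that became 1138 higher and 522 lower after a further quantile normalization. Both comparisons share the 3 arrays of culture 1. Between culture 3 and culture 2, only 2 clusters were higher and 2 were lower (0.00854% each), with 1724 at an unadjusted p under 0.05. Counted without a test, all 3 arrays of culture 1 lay below the other 6 in 2514 clusters (10.7%) and above them in 1146 (4.9%). The arrays of culture 2 lay above the rest in 617 clusters (2.64%) and below in 174 (0.743%), and those of culture 3 lay above in 259 (1.11%) and below in 628 (2.68%). Some clusters separate in this way without any difference between cultures, so the smaller of these counts are not evidence of one. The calls between cultures 3 and 1 and between cultures 2 and 1 rest on 3 arrays each. Without the DEAB array of culture 1 the number of calls over the 3 cultures fell to 447, and with any 1 array left out it was at most 1113.

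The arrays of 1 culture also deviated together. After the treatment means were removed, Pearson correlations across clusters were 0.474 to 0.614 within culture 1, 0.332 to 0.422 within culture 3 and 0.179 to 0.283 within culture 2. They were -0.511 to -0.297 between arrays of cultures 3 and 1, -0.382 to -0.151 between cultures 2 and 1, and -0.023 to 0.312 between cultures 3 and 2. Deviations from a treatment mean cancel out over the cultures of that treatment, so negative values between cultures are in part built in. The first principal component took 36.6% of the variance and had scores of 6.4 to 10.5 in culture 3, 3.4 to 8.6 in culture 2 and -20.8 to -10.3 in culture 1. The second (18.3%) was lowest in the DEAB+tRA array of every culture.

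**Figure D1:**
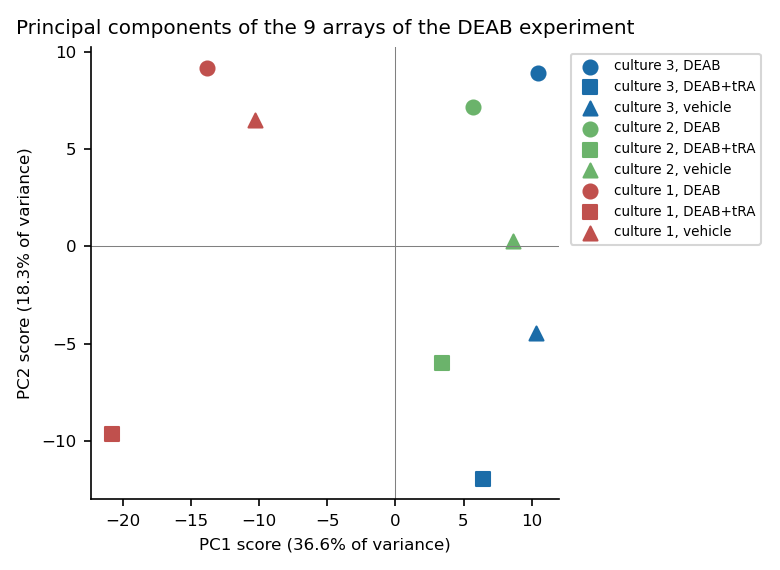
Scores of the 9 arrays on the first 2 principal components (axes: PC scores, with their percent of variance; colour: culture; symbol: treatment). The 3 arrays of culture 1 lie at -20.8 to -10.3 on PC1, apart from those of cultures 3 and 2, while PC2 is lowest for DEAB+tRA within each culture.

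Of the transcripts with the widest ranges, several were lowest in culture 1. Slc16a12, a monocarboxylate transporter family member that carries creatine, had the widest range. It read 8.34, 9.79 and 9.40 in culture 3 (DEAB, DEAB+tRA and vehicle, the order used throughout), 7.75, 8.70 and 8.75 in culture 2, and 6.46, 7.35 and 7.03 in culture 1. The arrays of culture 1 did not overlap with the others, although treatment moved this gene as well. The difference was 2.23 ± 0.12 (SE, n = 3 arrays per culture) between cultures 3 and 1 (limma adjusted p = 0.000315), a 4.69-fold difference in level, and 1.46 between cultures 2 and 1 (adjusted p = 0.00225).

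Lbp, the lipopolysaccharide-binding protein of the acute phase response, read 11.23, 11.55 and 11.64 in culture 3, 10.62, 10.69 and 10.98 in culture 2, and 9.06, 9.62 and 9.56 in culture 1. The 3 cultures were fully separated, and culture took 94.8% of its sum of squares. Culture 3 exceeded culture 1 by 2.06 ± 0.09 (adjusted p = 0.000242), and the difference of 0.71 between cultures 3 and 2 did not pass (adjusted p = 0.117). Cldn8, a claudin of collecting duct tight junctions, had 9.29, 8.94 and 9.40 in culture 3, 8.90, 8.42 and 8.91 in culture 2, and 7.47, 7.36 and 7.48 in culture 1. Its culture 3 minus culture 1 difference was 1.77 ± 0.08 (adjusted p = 0.00025). Cldn1, another claudin, went the other way, with 12.35, 12.18 and 12.21 in culture 3, 12.65, 12.65 and 12.54 in culture 2, and 13.23, 13.19 and 13.24 in culture 1. It was thus lowest in culture 3, by 0.97 ± 0.05 against culture 1 (adjusted p = 0.00025). Claudins set the ion selectivity of the paracellular path, and the ratio of these probes to each other is not a ratio of the proteins.

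Csf1r, the receptor of macrophage colony-stimulating factor, read 10.10, 10.21 and 10.45 in culture 3, 10.06, 10.06 and 10.44 in culture 2, and 8.58, 8.44 and 8.74 in culture 1. Cultures 3 and 2 overlapped, and culture 1 was lower by 1.67 ± 0.06 than culture 3 (adjusted p = 0.000242) and by 1.60 than culture 2 (adjusted p = 0.000365). The macrophage markers Adgre1 and Cd68 were not called (adjusted p = 0.498 and 0.103). Kcnj16, an inward rectifier potassium channel subunit of the distal nephron, read 9.91, 10.06 and 10.30 in culture 3, 9.89, 9.69 and 10.07 in culture 2, and 8.62, 8.03 and 8.69 in culture 1, a difference of 1.65 ± 0.12 between cultures 3 and 1 (adjusted p = 0.000764). Here too only culture 1 was separated. Other genes with the same order were Nrep (3.74-fold between cultures 3 and 1), Akr1c19 (3.16-fold), Dpp4, a surface peptidase (2.69-fold), Sorl1, a sorting receptor (2.67-fold), and Cdh17, a cadherin of absorptive epithelia (2.58-fold). All of these remained called with any 1 of the 9 arrays left out.

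**Figure D2:**
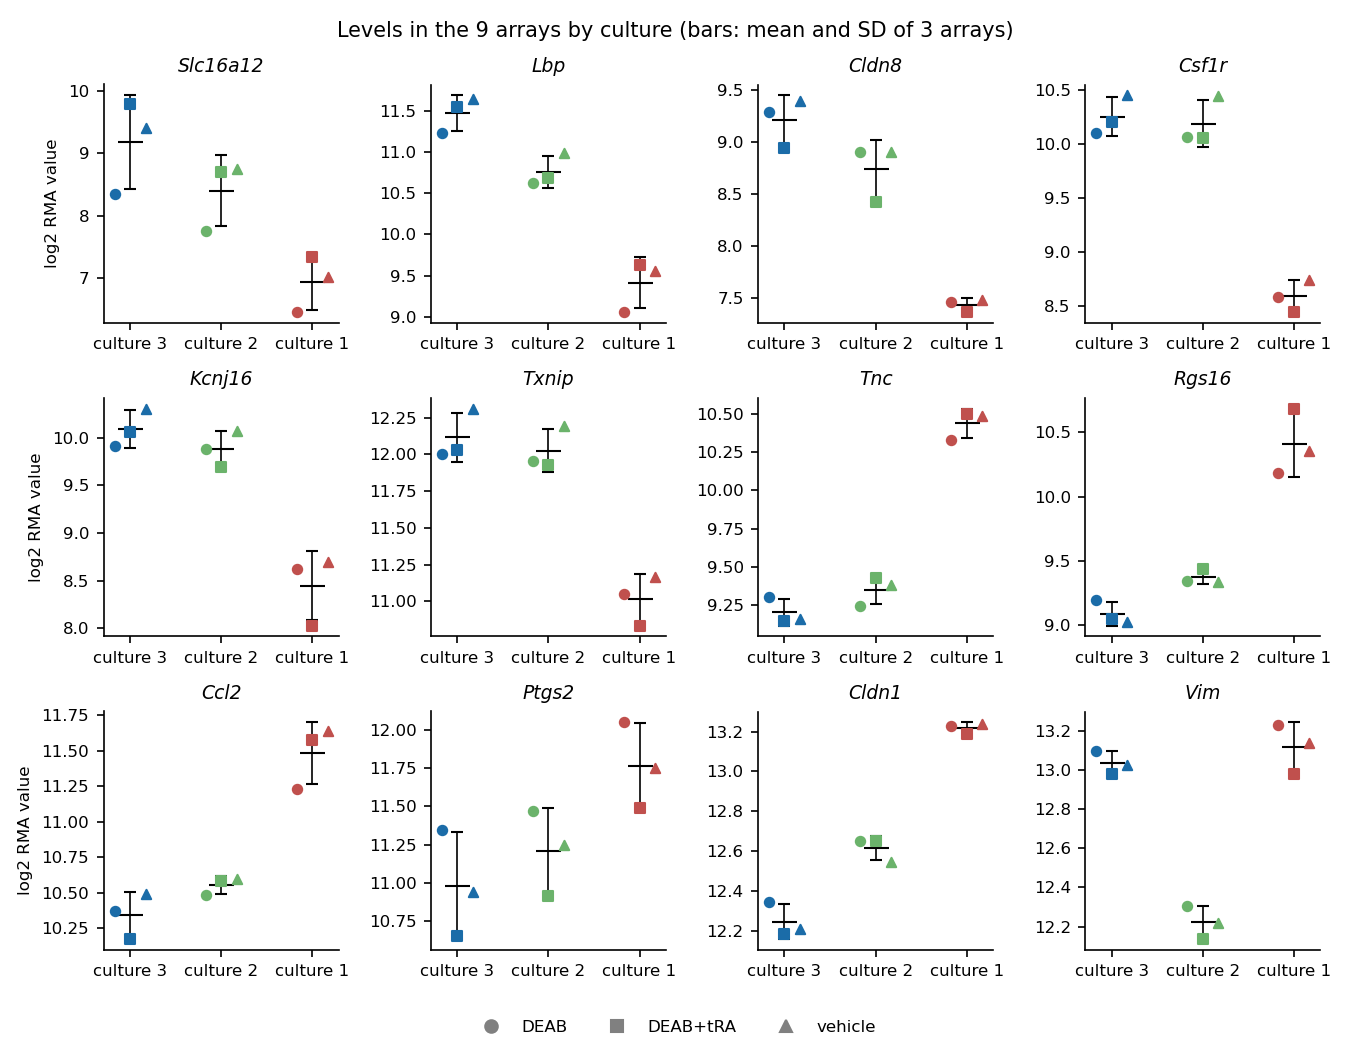
Log2 values (y axis) of 12 genes in the 9 arrays, by culture (x axis; circles: DEAB, squares: DEAB+tRA, triangles: vehicle; bars: mean and SD of 3 arrays, each y axis spans its own gene). Slc16a12, Lbp, Cldn8, Csf1r, Kcnj16 and Txnip are lowest in culture 1, Tnc, Rgs16, Ccl2, Ptgs2 and Cldn1 are highest there, and Vim is lowest in culture 2.

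Other transcripts were highest in culture 1. Tnc (tenascin C, a matrix glycoprotein of injured and remodelling tissue) read 9.30, 9.14 and 9.16 in culture 3, 9.25, 9.43 and 9.38 in culture 2, and 10.33, 10.50 and 10.49 in culture 1. Treatment took 0.247% of its sum of squares and culture 98.2%. It was lower by 1.23 ± 0.07 in culture 3 than in culture 1 (difference -1.23, adjusted p = 0.000454). Rgs16, which shortens G protein signals, read 9.19, 9.05 and 9.02 in culture 3, 9.34, 9.44 and 9.34 in culture 2, and 10.18, 10.68 and 10.36 in culture 1 (culture 3 minus culture 1 -1.32 ± 0.11, adjusted p = 0.00114). Its 3 cultures did not overlap. Lce1h, a late cornified envelope gene of the epidermis, differed 3.01-fold, Prune2 2.15-fold, Cdc42ep3, an effector of the GTPase Cdc42, 2.07-fold, and Tnnc2, a troponin C, 1.92-fold, each with the highest mean in culture 1.

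Cilium genes had the largest share of calls among the lists of cell functions. Of 22 measured genes for the primary cilium and polycystic kidney disease, 12 (54.5%) were called over the 3 cultures, beside 7.47% of all 19938 genes read from 1 cluster each, and their median range was 0.267 beside 0.106. In culture 3 against culture 1, 12 were higher and 0 lower, and the same counts held for culture 2 against culture 1, which shares the arrays of culture 1. The called members were 4 subunits of the BBSome, a coat for ciliary cargo (Bbs1, Bbs2, Bbs4, Bbs9), the transition zone protein Tmem67, 4 intraflagellar transport proteins (Ift81, Ift122, Ift140, Ift172), the motor Kif3a, the nephronophthisis protein Nphp4, and Pkhd1, whose product fibrocystin is lost in recessive polycystic kidney disease. Bbs1 read 11.05, 11.01 and 10.90 in culture 3, 10.94, 10.91 and 10.95 in culture 2, and 10.47, 10.48 and 10.47 in culture 1. The difference of 0.51 ± 0.05 between cultures 3 and 1 (adjusted p = 0.00169) was small in fold (1.43) and far wider than the spread within a culture. Ift122 had 10.38, 10.31 and 10.35 in culture 3, 10.21, 10.30 and 10.24 in culture 2, and 9.84, 9.91 and 9.91 in culture 1 (0.46 ± 0.04, adjusted p = 0.00201). The 10 members not called included Pkd1, with culture means within 0.10 of each other. With 1 array left out, the number of cilium genes called was between 3 (without the DEAB array of culture 1) and 11, and Bbs1, Bbs9 and Ift122 were called each time.

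The RFX transcription factors that drive ciliary genes bind X-boxes, whose core is GTTGCC. These letters, searched on both strands from 250 bases before to 50 after each RefSeq start site (GRCm38.p6), occurred in 8 of the 19 cilium genes with a promoter entry and in 14.1% of the 27025 genes of the table, and in 5 of the 9 called genes with an entry (Ift140, Ift172, Kif3a, Bbs1 and Nphp4). The letters, like those of the other motifs given here, were chosen after the values were seen and after trying other spellings. The stretches of 2 called members are shown, read along the gene's strand with the match in capitals (the core or its reverse complement).
Kif3a (chr11:53567251-53567296, plus strand, match 98 bases before the start): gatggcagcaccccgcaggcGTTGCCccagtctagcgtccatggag
Ift140 (chr17:25015957-25016002, plus strand, match 109 bases before the start): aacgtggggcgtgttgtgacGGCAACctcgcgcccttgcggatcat
Kif3a averaged 9.95 in culture 3, 9.91 in culture 2 and 9.66 in culture 1, and Ift140 averaged 9.58, 9.59 and 9.30, and both lost their call without the DEAB array of culture 1. A match describes the sequence only.

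NF-kB targets and epithelial cytokines showed the opposite order. Of 28 measured, 10 (35.7%, beside 7.47% of all genes) were called over the 3 cultures. In culture 3 against culture 1, 12 were lower and 1 higher. The median difference was -0.21, beside -0.005 over all genes. Ccl2, the monocyte chemoattractant, read 10.37, 10.17 and 10.49 in culture 3, 10.48, 10.58 and 10.59 in culture 2, and 11.23, 11.58 and 11.64 in culture 1, a difference of -1.14 ± 0.10 (adjusted p = 0.00131). Culture 1 stood clear of both others. Ptgs2, the inducible cyclooxygenase, read 11.35, 10.65 and 10.94 in culture 3, 11.47, 10.91 and 11.24 in culture 2, and 12.05, 11.49 and 11.75 in culture 1, so that treatment and culture added up: within each treatment culture 1 was highest and culture 3 lowest (-0.79 ± 0.05, adjusted p = 0.000454). Tnfaip3, a feedback inhibitor of NF-kB, read 9.10, 8.91 and 8.98 in culture 3, 9.21, 9.36 and 9.21 in culture 2, and 9.64, 9.94 and 9.98 in culture 1 (-0.86 ± 0.10, adjusted p = 0.00348), and was not called without the DEAB+tRA array of culture 1. The chemokines Cxcl1, Cxcl10 and Ccl20, the growth factors Csf1 and Il34 and the inhibitor Nfkbia were also called and lower in culture 3 than in culture 1, by 0.34 to 0.50 in size. Lcn2, the secreted siderophore carrier lipocalin 2, was the exception, with 13.04, 14.01 and 13.82 in culture 3, 13.14, 13.91 and 13.74 in culture 2, and 12.15, 13.52 and 13.26 in culture 1 (0.65 ± 0.11, adjusted p = 0.0134), and lost its call when any vehicle array or the DEAB or DEAB+tRA array of culture 3 was left out. Ccl20 lost it without the DEAB array of culture 1. The members Il6, Cxcl2 and Il1b were not called. With 1 array left out, 6 to 10 members were called.

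**Figure D3:**
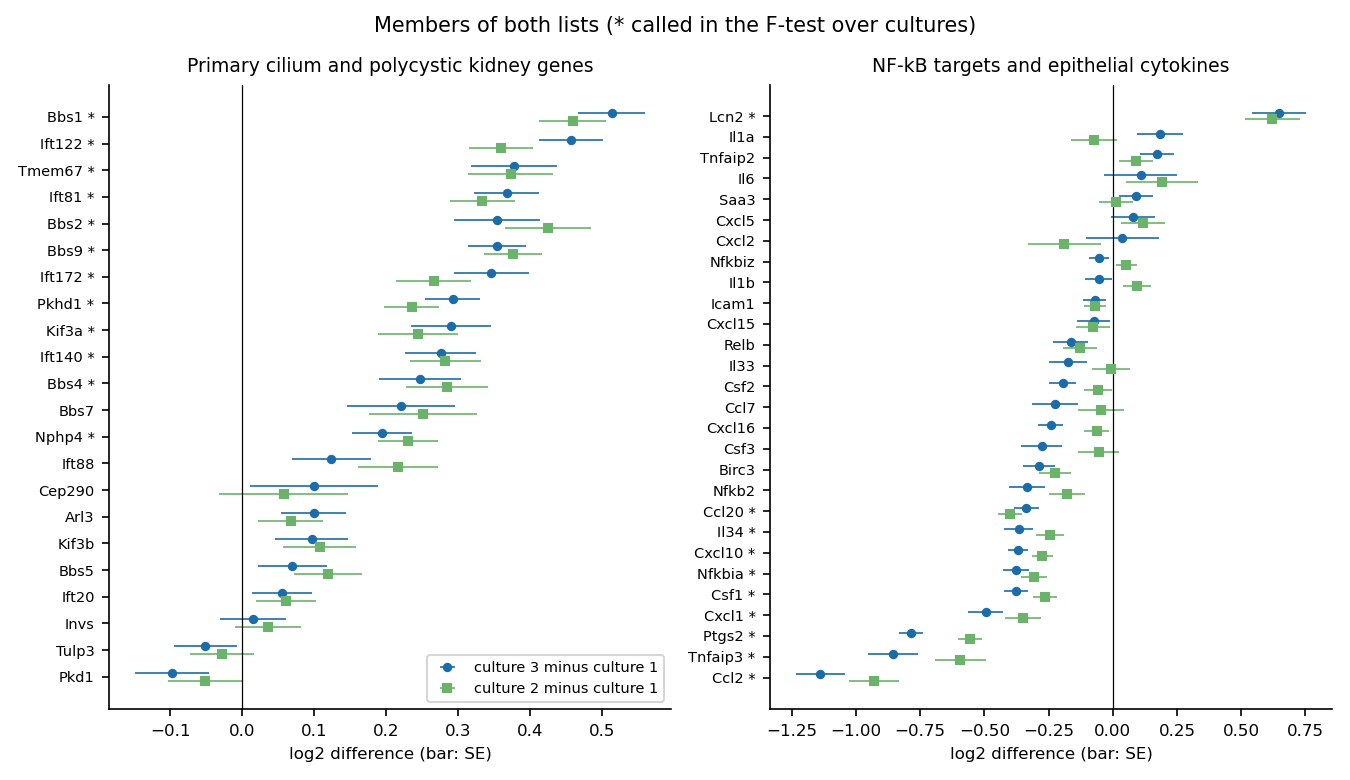
Log2 differences (x axis; bars: SE) of culture 3 (circles) and culture 2 (squares) against culture 1 for each measured cilium gene (left) and NF-kB target or cytokine (right); stars mark genes called in the F-test. Of the cilium genes 12 of 22 carry a star, all to the right of 0, and of the cytokines 10 of 28, with Lcn2 as the one star to the right of 0. Both series of points share the arrays of culture 1.

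Binding sites of NF-kB, spelled as GGG, any 2 bases and TTTCC on either strand, were found in the promoter windows of 8 of the 20 NF-kB targets with an entry (1.89% of all genes), 5 of them called (Nfkbia, Tnfaip3, Cxcl1, Ccl20 and Csf1). The matches, or their reverse complements, are in capitals in these stretches of 3 genes that were lower in culture 3 than in culture 1. In the Cxcl1 stretch a further match, on the other strand and 89 bases before the start, is left in lower case.
Cxcl1 (chr5:90891154-90891203, plus strand, match 71 bases before the start): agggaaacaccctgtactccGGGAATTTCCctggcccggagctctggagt
Ccl20 (chr1:83116666-83116715, plus strand, match 80 bases before the start): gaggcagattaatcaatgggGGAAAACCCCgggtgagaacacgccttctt
Csf1 (chr3:107760594-107760643, minus strand, match 154 bases before the start): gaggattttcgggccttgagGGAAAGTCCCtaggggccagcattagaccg
Cxcl1 read 9.09, 8.96 and 9.02 in culture 3, 9.17, 9.15 and 9.17 in culture 2, and 9.40, 9.65 and 9.51 in culture 1. Its values in culture 1 were all above the other 6.

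Feedback genes of the ERK pathway were lower in culture 3 than in culture 1 in 8 of 16, with 0 higher. Over the 3 cultures 5 were called (31.25%, and 2 to 8 with 1 array left out), beside 7.47% of all genes. Dusp1, a phosphatase of MAP kinases, read 11.48, 12.16 and 11.89 in culture 3, 11.79, 12.44 and 12.18 in culture 2, and 12.24, 12.81 and 12.53 in culture 1 (-0.68 ± 0.04, adjusted p = 0.000454). The arrays overlapped across cultures because treatment took 46.3% of the sum of squares, and within each treatment the order of the cultures was the same. Spry4, an inhibitor of receptor tyrosine kinase signalling, read 10.00, 9.38 and 9.31 in culture 3, 10.02, 9.65 and 9.64 in culture 2, and 10.56, 10.27 and 10.35 in culture 1 (-0.83 ± 0.08, adjusted p = 0.0023). Immediate early genes leaned the same way as the feedback genes. Of 26, 5 were called (19.2%, beside 7.47% of all genes). In culture 3, 6 were lower and 1 higher than in culture 1, with a median difference of -0.116. Egr1, an immediate early gene of the same pathway, ran the other way by 0.28 ± 0.04 (adjusted p = 0.00633), and lost its call over the 3 cultures without the DEAB array of culture 1.

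Of 19 targets of YAP and TEAD, 8 were called (42.1%, beside 7.47% of all genes), and against culture 1 culture 3 was lower in 8 and higher in 3. Tgfb2, the most clearly separated (-0.61 ± 0.04, adjusted p = 0.000539), read 8.85, 9.54 and 9.19 in culture 3, 9.04, 9.65 and 9.43 in culture 2, and 9.48, 10.11 and 9.83 in culture 1. The classical targets Ccn1 and Ccn2 differed by no more than 0.31, and Ccn2 lost its call with any array left out. The list kept 1 call without the DEAB array of culture 1 and at most 5 with another array left out. Of 19 SRF and actin cytoskeleton genes, 0 had a positive difference between cultures 3 and 1, and 6 were called lower. Over the 3 cultures 5 were called (26.3%, and 1 to 3 with 1 array left out), beside 7.47% of all genes. Acta2, smooth muscle actin, read 7.87, 8.36 and 8.22 in culture 3, 7.62, 8.22 and 7.90 in culture 2, and 8.27, 8.90 and 8.68 in culture 1. Culture 2 was lowest here in each treatment, by 0.71 against culture 1 (adjusted p = 0.00117).

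Of 29 genes of squamous differentiation and keratins, 7 were called (24.1%, beside 7.47% of all genes), all lower in culture 3 than in culture 1. With 1 array left out, 1 to 5 were called. Krt80, a keratin of cell margins, read 11.58, 11.25 and 11.37 in culture 3, 11.71, 11.46 and 11.69 in culture 2, and 12.20, 11.93 and 12.13 in culture 1 (-0.68 ± 0.05, adjusted p = 0.000613). Gjb2, a gap junction protein that is not in the list, read 7.03, 6.81 and 6.90 in culture 3, 6.75, 6.59 and 6.41 in culture 2, and 7.80, 7.48 and 7.60 in culture 1. Its lowest culture was culture 2 (-1.04 against culture 1, adjusted p = 0.000949).

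Some genes singled out cultures 2 and 3. The 4 clusters called between culture 3 and culture 2 were Vim and Zeb1, higher in culture 3, and Serpinb5 and Trav7n-5, lower there. Vim, the intermediate filament protein of mesenchymal and injured tubular cells, read 13.10, 12.98 and 13.02 in culture 3, 12.31, 12.14 and 12.22 in culture 2, and 13.23, 12.98 and 13.14 in culture 1. Culture 2 was thus the low one, by 0.81 against culture 3 (adjusted p = 0.00422) and 0.89 against culture 1 (adjusted p = 0.000855). Zeb1, a repressor of epithelial genes, read 8.21, 8.25 and 8.03 in culture 3, 7.45, 7.45 and 7.40 in culture 2, and 7.91, 7.93 and 7.91 in culture 1, with a difference of 0.73 between cultures 3 and 2 (adjusted p = 0.015). Cdh1, which Zeb1 is known to repress, was not called (adjusted p = 0.596). Serpinb5 (maspin) read 8.32, 7.18 and 7.88 in culture 3, 8.87, 7.88 and 8.43 in culture 2, and 9.11, 8.00 and 8.79 in culture 1 (culture 3 minus culture 2 -0.60, adjusted p = 0.048). Trav7n-5, a T cell receptor segment at a dim level, averaged 4.71, 5.23 and 4.67 in cultures 3, 2 and 1. With 1 array left out, 0 to 2 clusters were called higher and 0 lower between these cultures, and after quantile normalization or subtraction of array medians 1 was called lower.

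Several transcripts of glucose handling were higher in cultures 3 and 2 than in culture 1, and those of lipid handling went both ways. Txnip, an inhibitor of thioredoxin and of glucose uptake that is induced by glucose through MondoA, read 12.00, 12.03 and 12.31 in culture 3, 11.95, 11.93 and 12.19 in culture 2, and 11.05, 10.83 and 11.17 in culture 1. The difference between cultures 3 and 1 was 1.10 ± 0.05 (adjusted p = 0.00025). Its relative Arrdc4 read 9.41, 9.59 and 9.54 in culture 3, 9.46, 9.64 and 9.70 in culture 2, and 8.75, 8.82 and 9.12 in culture 1 (0.62 ± 0.07, adjusted p = 0.00266), and Pklr, pyruvate kinase of liver type, was higher by 0.55 ± 0.06 (adjusted p = 0.00242). These were the 3 called of 8 glucose-responsive genes (37.5%, beside 7.47% of all genes), and stayed called with any array left out. Cpt1a, which admits long-chain fatty acids to mitochondria, was higher by 0.65 ± 0.04 in culture 3 than in culture 1 (adjusted p = 0.000539), and Vldlr, a lipoprotein receptor, by 0.68 ± 0.04 (adjusted p = 0.000454). Fabp5, a fatty acid carrier, was lower by 0.61 (difference -0.61 ± 0.07, adjusted p = 0.00284). Of 16 PPAR targets and lipid droplet genes, 4 (25.0%) were called, and 3 were higher and 1 lower in culture 3 than in culture 1. Of 17 genes of fatty acid synthesis, 3 (17.6%) were called (Acaca, Fasn and Scd1), and 0 to 2 with 1 array left out. In culture 3, 0 of these 17 were higher and 2 lower than in culture 1, and in culture 2, 0 were higher and 3 lower. Of 20 genes of cholesterol synthesis, 3 (15.0%) were called (Mvd, Lss and Msmo1), and 6 were lower and 0 higher in culture 3 than in culture 1. When 1 array was left out, 0 to 5 were called over the 3 cultures.

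Lysosome and autophagy genes were higher in part as well. Of 21 measured, 7 were called (33.3%, beside 7.47% of all genes). In culture 3, 6 were higher and 0 lower than in culture 1, and in culture 2, 11 were higher and 0 lower than in culture 1. Gaa, the lysosomal alpha-glucosidase, read 11.23, 11.19 and 11.17 in culture 3, 11.06, 11.04 and 11.07 in culture 2, and 10.59, 10.45 and 10.68 in culture 1 (0.62 ± 0.05, adjusted p = 0.00156). The E-box CACGTG, which the lysosomal regulator TFEB and other factors bind and which reads the same on both strands, was in the promoter window of 8 of 18 list genes with an entry and of 8.09% of all genes. Gaa carries it, in capitals here.
Gaa (chr11:119267803-119267848, plus strand, match 140 bases before the start): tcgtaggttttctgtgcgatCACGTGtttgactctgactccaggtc
With 1 array left out, 1 to 6 lysosomal genes were called, and Gaa was among them each time.

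Of 26 NRF2 pathway and glutathione genes, 6 were called (23.1%, and 2 to 6 with 1 array left out), beside 7.47% of all genes. All 6 were higher in culture 3 than in culture 1. They were Gclc, which limits glutathione synthesis, Ephx1, an epoxide hydrolase, and the glutathione S-transferases Gsta4, Gstm1, Gstm2 and Gstm3, of which the Gstm genes are close copies that probes may not tell apart. Of 23 genes of the unfolded protein response, 5 were called (21.7%, and 0 to 3 with 1 array left out). In culture 3, 2 were higher and 5 lower than in culture 1.

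Genes of growth were lower in culture 3 than in culture 1 only in part. Of 28 genes of ribosome biogenesis and MYC targets, 6 were called (21.4%, and 0 to 7 with 1 array left out), beside 7.47% of all genes. In culture 3, 9 were lower and 0 higher than in culture 1, for example Srm, spermidine synthase (-0.34 ± 0.05, adjusted p = 0.00606). Srm lost its call over the 3 cultures without the vehicle or the DEAB+tRA array of culture 1. In contrast, 0 of 29 genes of mitosis, 0 of 24 ribosomal proteins, 0 of 28 genes of the respiratory chain and 0 of 27 of the proteasome were called, and their median ranges were 0.0842, 0.0651, 0.0591 and 0.0641, in that order, beside 0.106 over all genes. These counts read each listed gene from its brightest cluster only. Of 14 clusters of the ribosomal protein gene Rps12, 12 were called, with ranges of 0.187 to 0.240. Of 29 genes of DNA replication, 2 were called (6.90%, near the 7.47% of all genes). They were Prim1 and Gins2, and at most 1 was called with an array left out. These replication genes leaned the other way, with 3 higher and 0 lower in culture 3 than in culture 1. Of the 29 differences 27 were positive, with a median of 0.0893 beside -0.005 over all genes. Among cell cycle inhibitors and p53 targets, 8 of 18 (44.4%, beside 7.47% of all genes) were called in mixed directions, and 3 to 5 with 1 array left out. The inhibitor Cdkn1b (p27) was higher in culture 3 than in culture 1 by 0.43 ± 0.05 (adjusted p = 0.00309), while the p53 targets Pmaip1 (Noxa) and Zmat3 differed by -0.59 ± 0.06 (adjusted p = 0.00212) and -0.50 ± 0.05 (adjusted p = 0.00246).

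**Figure D4:**
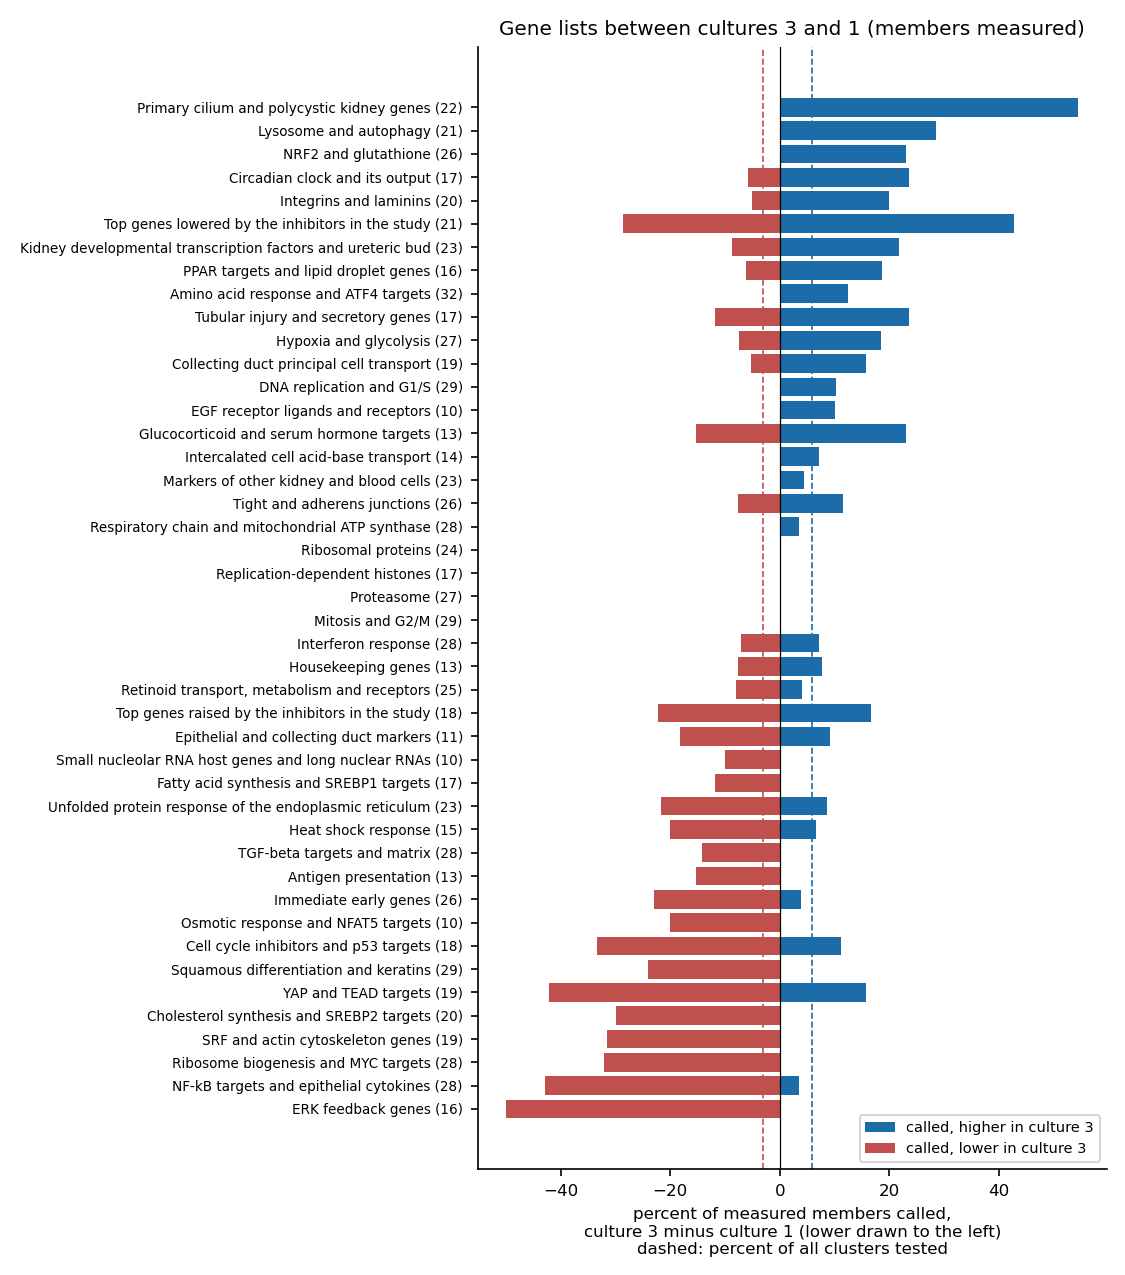
Percent of the measured members of each list with at least 10 members that were called between culture 3 and culture 1 (x axis; right: higher in culture 3, left: lower; numbers: members measured; dashed lines: 5.79% and 3.05% of all clusters). The cilium list has the longest bar to the right (12 of 22) and ERK feedback genes the longest to the left (8 of 16).

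Kidney identity genes varied in both directions. Of 23 genes of kidney development, 8 were called (34.8%, beside 7.47% of all genes), and 3 to 5 with 1 array left out. Lhx1 read 7.70, 7.80 and 7.72 in culture 3, 7.73, 7.45 and 7.63 in culture 2, and 7.11, 7.04 and 7.08 in culture 1 (0.66 ± 0.07, adjusted p = 0.00248), and Wnt4 was higher by 0.46 ± 0.05 (adjusted p = 0.00403). Sox9, a factor of the ureteric tip and of repair, was lower by 0.57 (difference -0.57 ± 0.04, adjusted p = 0.000613). Among 19 genes of principal cell transport, 3 were called (15.8%). The mineralocorticoid receptor Nr3c2 was higher in culture 3 than in culture 1 by 0.72 ± 0.06 (adjusted p = 0.000989), and the sodium channel subunit Scnn1a by 0.31 ± 0.06 (adjusted p = 0.0169; not called over the 3 cultures without the vehicle array of culture 1 or 2 or the DEAB+tRA array of culture 1). Sgk1, the kinase that raises sodium channel activity, ran against them, with 8.00, 8.00 and 7.82 in culture 3, 8.24, 8.29 and 8.18 in culture 2, and 8.84, 8.79 and 8.74 in culture 1 (-0.85 ± 0.04, adjusted p = 0.00025). Its 3 cultures were fully separated.

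Among interferon-induced genes only a few stood out. Ifit3 read 10.80, 10.94 and 11.31 in culture 3, 10.75, 10.85 and 11.06 in culture 2, and 9.92, 9.53 and 9.95 in culture 1 (1.21 ± 0.11, adjusted p = 0.00155), and its neighbours on chromosome 19, Ifit3b and Ifit2, differed by 1.65 ± 0.10 (adjusted p = 0.000454) and 0.42 ± 0.05 (adjusted p = 0.00291). Ifit3 and Ifit3b are near-identical copies, so that their probes may share transcripts, and Ifit3b is not in the list. The rest of the list did not follow: 3 of 28 members were called (10.7%, near the 7.47% of all genes). These were Ifit2, Ifit3 and Rsad2, and 2 to 5 were called with 1 array left out. The median difference between cultures 3 and 1 was -0.19. Rsad2 was lower in culture 3 than in culture 1 (-0.59 ± 0.10, adjusted p = 0.0148), and lost its call over the 3 cultures in 7 of the 9 fits with 1 array left out.

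Clock genes differed as well. Of 17, 6 were called (35.3%, beside 7.47% of all genes), and 3 (without the DEAB array of culture 1) to 5 with 1 array left out. Per3 read 9.24, 9.04 and 9.19 in culture 3, 9.24, 9.04 and 9.23 in culture 2, and 8.85, 8.68 and 8.85 in culture 1 (0.36 ± 0.04, adjusted p = 0.00212), and Dbp, an output factor of the clock, differed by 0.39 ± 0.04 (adjusted p = 0.0025). Both separated culture 1 from the other 6 arrays.

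Genes that the study chose on these same arrays as most lowered by both inhibitors were often called between cultures as well. Of 21 such genes, 15 (71.4%) were called, beside 7.47% of all genes. The 21 include Clca4b, a relative of the study's member Clca3b with a shared older name, which was not called. Between cultures 3 and 1, 9 were higher and 6 lower in culture 3. With 1 array left out, 10 to 15 were called over the 3 cultures. Culture took a median of 14.7% of their sum of squares, beside 33.2% over all genes. Both values depend on how the genes were chosen. Clusters with little residual spread pass a treatment test and a culture test more easily, and a large treatment effect lowers the share left to culture. Neither value is thus evidence about these genes. Tns1, a focal adhesion protein, read 11.33, 12.63 and 12.38 in culture 3, 11.24, 12.56 and 12.33 in culture 2, and 10.55, 11.78 and 11.54 in culture 1. DEAB lay below vehicle by 1.04 on average and culture 3 lay above culture 1 by 0.83 ± 0.04 (adjusted p = 0.00025). Treatment took 68.9% and culture 31.0% of its sum of squares. Ebf1, a transcription factor, read 8.11, 9.79 and 9.34 in culture 3, 8.54, 10.26 and 9.78 in culture 2, and 9.03, 10.69 and 10.40 in culture 1, with culture 3 lower than culture 1 (-0.96 ± 0.05, adjusted p = 0.00025). Here culture 1 was the high one in every treatment. Npr3, the natriuretic peptide clearance receptor, had 9.94% of its sum of squares between cultures and 89.8% between treatments, and was still called between cultures (-0.54 ± 0.05, adjusted p = 0.00169).

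Removing the culture differences changed the treatment comparisons. Without replicate number as a block, limma called 8 clusters between DEAB and vehicle, 76 between DEAB+tRA and DEAB and 0 between DEAB+tRA and vehicle. When the replicate block was added, the counts were 71 (0.303%; 5 higher and 66 lower with DEAB), 351 (1.5%) and 5, and the median standard error was 0.0551 in place of 0.0699. Of the 71 and 351, 49 (69.0%) and 177 (50.4%) were also called between cultures, beside 7.14% of all clusters. The treatment and culture tests share 1 residual variance, so clusters with little residual spread pass both more easily.

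The cultures of the AGN193109 experiment, different cultures on different arrays that were read as normalized apart, differed as well. The same test called 777 clusters (3.32%) there, with 4848 at an unadjusted p under 0.05, and the median range of culture means was 0.161 with a standard error of 0.0849. Called in both experiments were 354 clusters, 21.2% of the DEAB calls and 45.6% of the AGN193109 calls. Across the 354, the difference of DEAB culture 3 minus culture 1 had a Pearson correlation of 0.877 with AGN193109 culture 3 minus culture 2 (same sign in 327), of 0.393 with culture 3 minus culture 1 and of -0.845 with culture 2 minus culture 1. Across all 23410 clusters the values were 0.405, 0.0116 and -0.444. Genes are not independent replicates and the clusters were taken for being called in both, so these values are a description.

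By gene, Lbp averaged 11.23, 9.01 and 10.59 in cultures 3, 2 and 1 of the AGN193109 experiment (adjusted p = 0.000354), Cldn8 7.54, 6.77 and 7.99 (adjusted p = 0.0138), Txnip 11.65, 10.47 and 11.99 (adjusted p = 0.0035), and Csf1r 9.19, 7.99 and 9.20 (adjusted p = 0.00559). All were lowest in culture 2 of that experiment, as they were in culture 1 of the DEAB experiment. Ccl2, at 10.00, 11.38 and 9.78 (adjusted p = 0.00342), and Rgs16, at 9.14, 10.64 and 9.37 (adjusted p = 0.00625), were highest there. Of the NF-kB list, 6 of the 10 genes called between DEAB cultures were called between AGN193109 cultures too, of the cilium list 2 of 12 (Bbs9 and Pkhd1). Over all clusters called between DEAB cultures this share was 21.2%, and the cilium count is near it. Of the interferon list 16 of 28 were called between AGN193109 cultures, where 3.32% of all clusters were called. Between DEAB cultures 3 of the list were called, with 1 in common (Rsad2). Tnc and Ifit3 were called only in the DEAB experiment (adjusted p = 0.0986 and 0.188 between AGN193109 cultures), a difference between experiments that was not tested.

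**Figure D5:**
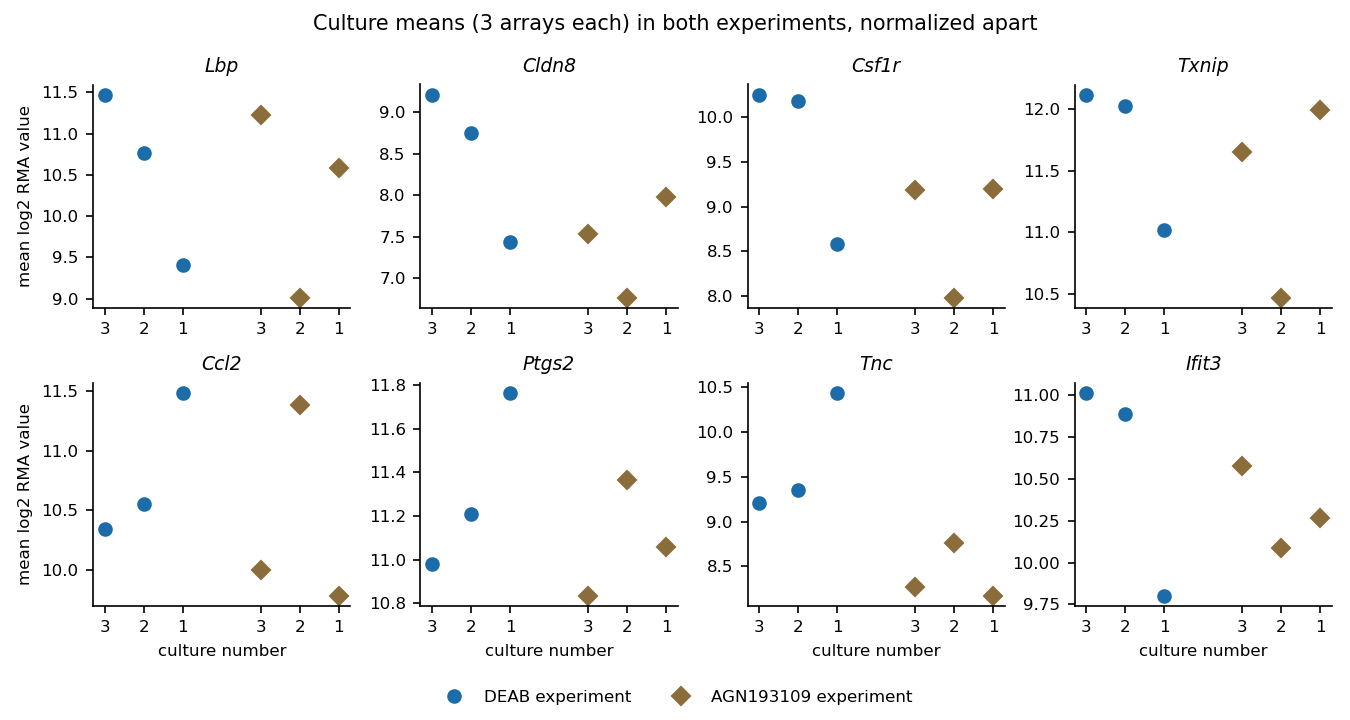
Mean log2 values (y axis; 3 arrays each) of 8 genes in cultures 3, 2 and 1 (x axis) of the DEAB experiment (circles) and of the AGN193109 experiment (diamonds), read as normalized apart, so levels compare only within an experiment. Lbp, Cldn8, Csf1r and Txnip are lowest in culture 1 of the DEAB experiment and in culture 2 of the AGN193109 experiment, where Ccl2 and Ptgs2 are highest.

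The share of calls depended on signal. Of 4 equal groups of genes by mean level, 0.883%, 3.73%, 15.1% and 10.1% were called from the dimmest to the brightest, and the median level of called clusters was 9.78 beside 8.17 over all. The share over all genes that is set beside the lists does not allow for this. By chromosome the share of genes called ran from 5.14% to 9.76%, and by class of RNA it was 7.86% of protein-coding genes, 1.63% of 675 long noncoding RNA genes, 0.673% of 297 miRNA genes and 9.43% of 53 snoRNA genes.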

How the data were processed

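The authors scanned 18 Affymetrix Mouse Gene 1.0 ST arrays and normalized them with the Robust Multichip Average in Affymetrix Expression Console, whose version the sources used here do not give. The deposited log2 values were used unchanged. Array medians were 7.48 to 7.51 in the DEAB experiment and 7.23 to 7.33 in the AGN193109 experiment, so the experiments were read as normalized apart. Of 35556 transcript clusters, 23410 carry a symbol in the array annotation (21789 with 1, 1621 with several) and were tested, and 12146 carry none. Each array took its treatment and its culture number from its title.

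Culture and treatment were terms of a linear model in limma 3.58.1 (R 4.3.3), fitted to the 9 arrays with 4 residual degrees of freedom, followed by a moderated F-test over the 3 cultures and 3 pairwise contrasts, each with the Benjamini-Hochberg adjustment over 23410 clusters. An interaction of culture with treatment cannot be tested with 1 array per cell. Residual correlations were 0.179 to 0.614 in the 9 pairs of arrays with the same culture number. Between cultures 3 and 2 they were -0.023 to 0.312, which overlaps the 0.179 to 0.283 within culture 2. The correlations thus set culture 1 apart, and for cultures 2 and 3 the pairing rests on the titles. In 3 arrays against 3, an exact permutation test cannot go below p = 0.1, so p-values rest on the model and precision is limited by how few arrays there are. The test was first tested on simulated data.

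A gene with several clusters was read from the brightest. Genes named in the text are, per pair of cultures, the 10 largest rises and the 10 largest falls called in the pair and in the F-test with the same direction in all 3 treatments, the 10 largest ranges, and per list up to 5 members with the smallest adjusted p plus the widest range. Other members of the lists and the genes used for markers, promoters or the pair of cultures 3 and 2 were named after their values were seen. The lists and the comparison itself were chosen with earlier results of these data known. Symbols and positions are RefSeq's for GRCm38.p6 (19856 of 19938 genes matched by gene ID), and promoter sequences are from RefSeq in the same build. Figures used matplotlib 3.10.9 in Python 3.11.15. Alternatives were further quantile normalization, subtraction of array medians, dim clusters (lowest 30 percent) left out, all clusters, clusters with 1 symbol only, no treatment term, limma's trend and robust options, all 18 arrays in 1 fit, 6 arrays without 1 treatment, and each array left out in turn. The scaling alternatives for the counts of cultures that do not overlap were chosen after seeing the data.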

Additional observations from a re-analysis of the deposited data

How the results depend on the processing

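Of the genes called between cultures, 169 were chosen by rule and followed through the alternatives. The direction was reversed in 0 of them, and 69 stayed called with any 1 array left out. Other genes named as called were not followed singly. The count of clusters called between DEAB cultures (1672) stayed within 1.5 times under further quantile normalization (1674, of which 1473 are shared), subtraction of array medians (2057), without dim clusters (2447), with clusters of 1 symbol only (1666), without the treatment term (1136) and with all 18 arrays (1189). It moved to 604 with all clusters, 3281 with limma's trend and robust options, and to 0, 39 and 171 with 6 arrays (without the vehicle, DEAB or DEAB+tRA arrays), where fewer arrays are fitted. With 1 array left out it was 447 to 1113. For AGN193109 cultures (777) it was 45 with all clusters and 183 to 835 with 1 array left out. Members of the lists called (175) numbered 71 with all clusters, 85 without the treatment term, 293 with trend and robust, 0, 11 and 26 with 6 arrays, in the same order, and 65 to 130 with 1 array left out.

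Between cultures 3 and 1, clusters higher in culture 3 (1355) numbered 652 with all clusters, 2054 with trend and robust, 877 with 18 arrays, 335, 134 and 268 with 6 arrays, and 485 to 1051 with 1 array left out. Those lower (713) numbered 370, 1240, and 136, 118 and 167 with 6 arrays, and 284 to 559. Between cultures 2 and 1, those higher in culture 2 (1436) numbered 528 with all clusters, 930 without the treatment term, 2401 with trend and robust, 851 with 18 arrays, 0, 4 and 119 with 6 arrays, and 251 to 1263 with 1 array left out. Those lower (372) numbered 573 without dim clusters, 128 with all clusters, 219 without the treatment term, 813 with trend and robust, 201 with 18 arrays, 0, 1 and 42 with 6 arrays, and 49 to 316. Between cultures 3 and 2, the 2 higher clusters became 0 with all clusters, 19 with trend and robust, 0, 0 and 0 with 6 arrays, and 0 to 2 with 1 array left out. The 2 lower ones became 1 under either further normalization and with 18 arrays, 0 with all clusters, without the treatment term and with 6 arrays, 33 with trend and robust, and 0 to 0 with 1 array left out.

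For treatments, the replicate block changed the counts from 8, 76 and 0 to 71, 351 and 5. With 1 array left out and no block they were 5 to 11, 22 to 64 and 0 to 0. The median share of culture in the sum of squares and the count of clusters whose cultures do not overlap (4800) did not move beyond 1.5 times. Except where fewer arrays or more clusters enter a fit, the cause of a moved count was not tested. Few arrays and dim signal both limit the calls, and a cluster that misses the threshold is not shown to be equal between cultures.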

Other observations

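A group of transcripts known from the early mouse embryo also differed between cultures. They were chosen after their values were seen, and several belong to multigene families whose copies the probes may not tell apart. Of 17 clusters that carry the symbol Gm7982, 17 were called between DEAB cultures and 17 between AGN193109 cultures, with differences of -1.24 to -1.08 between DEAB cultures 3 and 1. These clusters share probes or sequence and are not independent measurements. Tdpoz3, a member of a family of BTB proteins, read 7.08, 6.99 and 6.95 in culture 3, 7.65, 7.75 and 7.66 in culture 2, and 8.05, 7.65 and 8.55 in culture 1, a difference of -1.08 ± 0.18 between cultures 3 and 1 (limma adjusted p = 0.0134), and was not called over the 3 cultures with 6 of the 9 arrays left out in turn. Zfp352, a zinc finger gene of cleavage-stage embryos, read 8.12, 7.97 and 7.99 in culture 3, 8.35, 8.60 and 8.86 in culture 2, and 9.01, 8.77 and 9.23 in culture 1 (adjusted p of the F-test 0.0106). It averaged 6.92, 7.99 and 7.78 in cultures 3, 2 and 1 of the AGN193109 experiment (adjusted p = 0.0165).

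In the fit over all 35556 clusters, which called 604 of them between DEAB cultures, 77 of the calls were among the 12146 clusters without a gene symbol (0.634%).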
